A study of Sus scrofa domesticus and Sus scrofa with 18 samples.

Results

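The genes described here had similar mean levels in the spleen of domestic pigs at every stage examined, by the limit given below. They lay at another level in the spleen of Wild Boars. They were selected from the table of 12913 protein-coding genes on the log2(FPKM+1) scale, where FPKM is a count of fragments scaled by transcript length and by the mapped fragments of the library. A gene was taken when the highest and lowest of the 5 domestic stage means lay less than 0.75 apart, when the Wild Boar mean lay at least 1 from the mean of the domestic adults of the same age with no overlap between the 3 values of each group, and when its mean over all 18 libraries was below 10. These conditions gave 59 of 12913 genes (0.457%), of which 56 were higher and 3 were lower in Wild Boar. Because 1 is added to FPKM, a gene of low level can pass the first condition with a large ratio between stages. The stage means of the member NR4A3, for example, ran from 0.10 in fetuses to 0.70 at 180 days. The same values that chose the genes are the values given below, so they are a description and carry no test.

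The 15 domestic libraries came from spleens of Rongchang pigs, a Chinese indigenous breed, with 3 libraries from each of E55d, fetuses taken 55 days before birth, B0d, newborn piglets, W30d, piglets 30 days after weaning, A180d, pigs aged 180 days, and A2Y, adults aged 2 years. The 3 Wild Boar libraries (WB) came from animals that were also 2 years old and were sampled in Ya'an. All animals were female, and the sources name no transgene or treatment in any group. Whole spleen was used, so fewer cells of a type and less RNA per cell cannot be told apart where a value is lower, and breed, place of collection and the amount of sequence data differ together between A2Y and WB and cannot be told apart.

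The spleen filters blood in the red pulp, where macrophages, sinus endothelium and a smooth-muscle and collagen framework predominate, and mounts immune responses in the white pulp, where B and T lymphocytes are packed. As an organ of blood storage it holds contractile trabeculae and a fibrous capsule. Genes of the extracellular matrix, of endothelium and of the acute stress response are used by many of its cells at low to moderate levels, and those of the early response can be switched on within minutes of a stimulus.

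Because FPKM were deposited in place of read numbers, the depth behind each value is unknown and no counting interval is given. Median log2 levels of the libraries ran from 2.21 to 2.66, with the highest in WB replicate 3, against 2.35 and 2.43 in the other two WB libraries. The median difference of all genes from the A2Y mean was -0.09, -0.04 and 0.16 in WB replicates 1, 2 and 3, and 0.01 for the WB mean. The WB libraries had 11225 to 11305 detected lncRNAs, against 12905 to 13359 in A2Y and 10929 to 11471 in A180d. By the study's sample list A2Y also had the most sequence data. No 2 libraries held identical values.

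Stable levels over the domestic stages were common, and stable genes with a distinct level in WB were few. The condition on the stages was met by 5225 of 12913 genes (40.5%), and 673 genes (5.21%) separated WB from A2Y by both limits. Of the 5225 stable genes, 60 (1.15%) separated WB, of which 1 was left out by the limit on the mean level. Among the 7688 genes with larger stage differences, 613 (7.97%) did. The measure itself bears on this contrast, since the A2Y mean enters both the stage range and the WB difference. Genes of low level also vary little on this scale in either respect. Nothing is therefore read from these shares. The direction also differed in count, since 56 of the 59 stable genes (94.9%) were higher in WB, against 358 of the 613 others (58.4%). The share among the stable genes depended on the scale, the libraries and the scaling. A gene with a mean FPKM below 1 in A2Y could lie 1 higher in WB but not 1 lower. Of the 59, 10 were such genes. With 0.1 in place of 1 added to FPKM, the rule gave 58 genes, 47 higher and 11 lower (30 of them among the 59). When each library was divided by its median ratio over all genes, the rule gave 59 genes with 49 higher and 10 lower (43 of them among the 59 above), and without WB replicate 3 it gave 57 with 38 higher and 19 lower (36 among the 59).

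**Figure D1:**
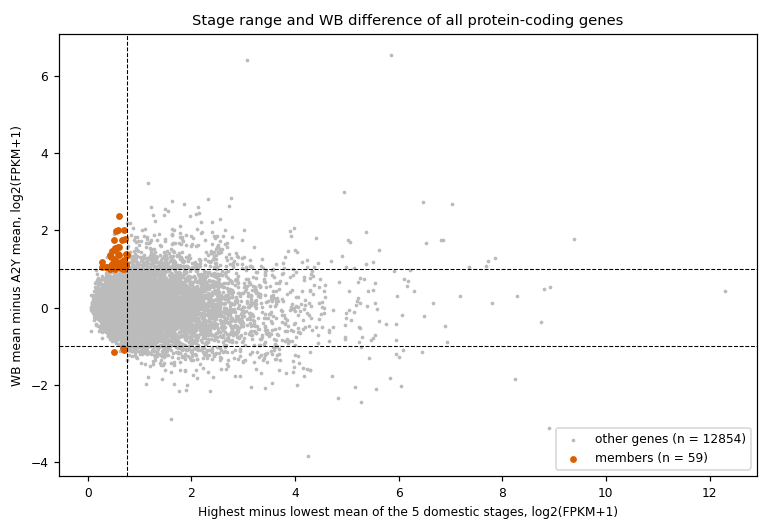
Each point is a protein-coding gene. The horizontal axis gives the highest minus the lowest of the 5 domestic stage means and the vertical axis the WB mean minus the A2Y mean, both on the log2(FPKM+1) scale, with dashed lines at the limits of 0.75 and ±1. The 59 members (orange) fill the narrow upper left area, with 56 above 1 and 3 below -1.

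The limits cut through continuous values. QSOX1, with a domestic range of 0.749, and ENO1, with 0.739, were just inside the first limit, and MAFF (0.752) and EAF2 (0.759) were just outside. COX4I1, with a difference of 1.01, was just inside the second, and BAG1 (0.992) and NEIL2 (0.987) were just outside. The condition of no overlap alone removed 6 genes, among them HBEGF, whose groups overlapped by 0.136. MAFF, a small transcription factor, and HBEGF, a growth factor, are both early-response genes of the same kind as some members.

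The members were genes of low to moderate abundance. Their mean FPKM in A2Y ran from 0.195 to 73.2 with a median of 5.05, against a median of 4.65 over all genes. Mean FPKM was below 1 for 10 of the 59, and 1 member was listed at 0 in a library of A180d. The 56 higher members had a median WB minus A2Y difference of 1.14 (range 1.01 to 2.37), and their FPKM in WB was from 2.01 to 11.3 times that in A2Y (median 2.79), the highest ratio resting on WB replicate 1. All 3 WB values lay outside the values of all 15 domestic libraries for 39 of the 59, 37 of them higher and 2 lower. Over all genes this held for 7.31%, and nothing is read from the members' share, which the rule favours.

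**Figure D2:**
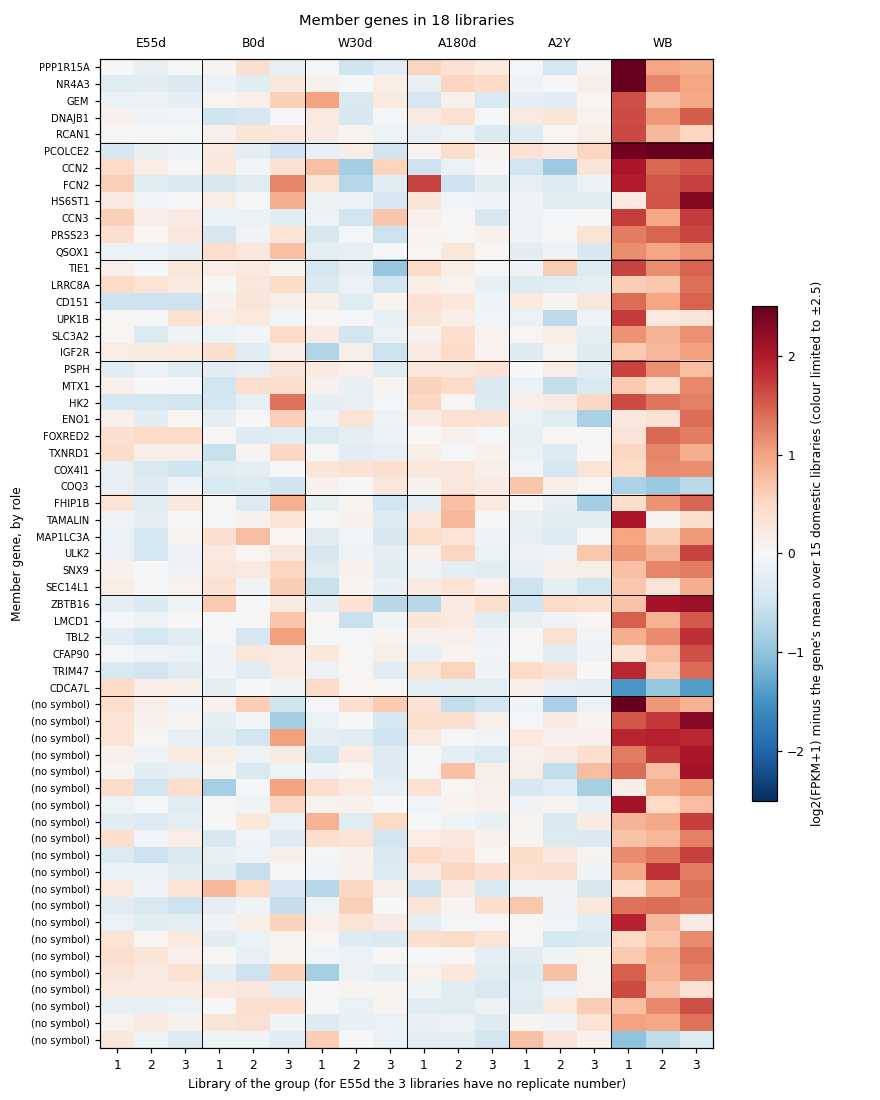
Rows are the 59 member genes grouped by role, and columns are the 18 libraries by group. Colour gives log2(FPKM+1) minus the gene's mean over the 15 domestic libraries, limited to ±2.5. The WB columns are red for 56 genes and blue for 3, and single domestic libraries, such as B0d replicate 3, are red for some genes.

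The 3 WB animals did not contribute equally. WB replicate 3 held the highest WB value for 30 of the 56 higher members (53.6%), WB replicate 1 for 19 and WB replicate 2 for 7. Over all genes the shares of WB replicates 1, 2 and 3 were 21.4, 14.8 and 63.7%. Among the 359 other genes that were higher in WB by the same limits, they were 30.6, 6.96 and 62.4%. The SD in WB was above that in A2Y for 44 of the 59 members, with a median of 0.39 against 0.21, whereas over all genes it was so for 62.6%, with medians of 0.25 and 0.19. Without WB replicate 1, 49 of the 59 members still differed by at least 1, and without WB replicate 3, 36 did. Their sign could not change, since the rule allowed no overlap between A2Y and WB.

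Reference tables paired 38 of the 59 identifiers with a gene symbol. These were placed in role groups from textbook knowledge after their names and values were known, so the groups serve to order the account. Secreted proteins and enzymes of the matrix made up 7 members, all higher in WB, with a median difference of 1.57, against 1.14 over the 56 higher members and 0.01 over all genes.

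PCOLCE2 (ENSSSCG00000011683) encodes a secreted protein that binds procollagen and speeds the removal of its C-terminal propeptide. Its log2(FPKM+1) values were 1.48, 1.32 and 1.67 in A2Y and 3.54, 4.12 and 3.91 in WB. The 15 domestic libraries spanned 0.62 to 1.67 with a median of 1.22, so that all 3 boars stood clear of every domestic pig. The mean FPKM was 1.82 in A2Y and 13.7 in WB, a 7.5-fold difference, and this was the widest log2 difference among the members (2.37).

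CCN2 (ENSSSCG00000004192, connective tissue growth factor) and CCN3 (ENSSSCG00000006002) are matricellular proteins of the same family, secreted regulators of adhesion and matrix production. CCN2 values were 2.41, 1.95 and 3.17 in A2Y and 4.87, 4.29 and 4.43 in WB, a difference of 2.02 and a 4.45-fold FPKM. CCN3 values were 0.65, 0.75 and 0.78 in A2Y and 2.52, 1.75 and 2.52 in WB, a difference of 1.54 and a 6.04-fold FPKM. Neither gene's WB values overlapped the domestic ones, which spanned 1.95 to 3.61 for CCN2 and 0.33 to 1.47 for CCN3, with W30d replicate 3 (1.47) the domestic library nearest to the boars in CCN3.

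FCN2 (ENSSSCG00000023333) encodes a ficolin, a soluble lectin that recognises sugars on microbes and starts the lectin pathway of complement. Its values were 0.71, 0.59 and 0.77 in A2Y and 2.88, 2.48 and 2.64 in WB, a difference of 1.98 and an 8.76-fold FPKM. The contrast with A2Y was clean, but the gene was not stable in single domestic animals, since A180d replicate 1 reached 2.61 and B0d replicate 3 reached 2.16 against a domestic median of 0.64. The stage means hid these animals, and the boars overlapped A180d.

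The other secreted or matrix members were an enzyme of heparan sulfate, a protease and an oxidase that forms disulfide bonds. HS6ST1 (ENSSSCG00000022197), which adds sulfate groups to heparan sulfate chains, had values of 3.22, 3.04 and 3.05 in A2Y and 3.54, 4.87 and 5.61 in WB (difference 1.57). WB replicate 1 was close to A2Y for this gene and below B0d replicate 3 (4.20). PRSS23 (ENSSSCG00000014921), a secreted serine protease, had values of 2.38, 2.46 and 2.81 in A2Y and 3.75, 3.92 and 4.14 in WB (difference 1.39). QSOX1 (ENSSSCG00000015535), the oxidase, had values of 1.997, 2.12 and 1.86 in A2Y and 3.42, 3.24 and 3.40 in WB (difference 1.36). The boars were narrowly grouped for these last genes, and lay outside the domestic spans of 1.93 to 2.89 and 1.86 to 3.01.

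**Figure D3:**
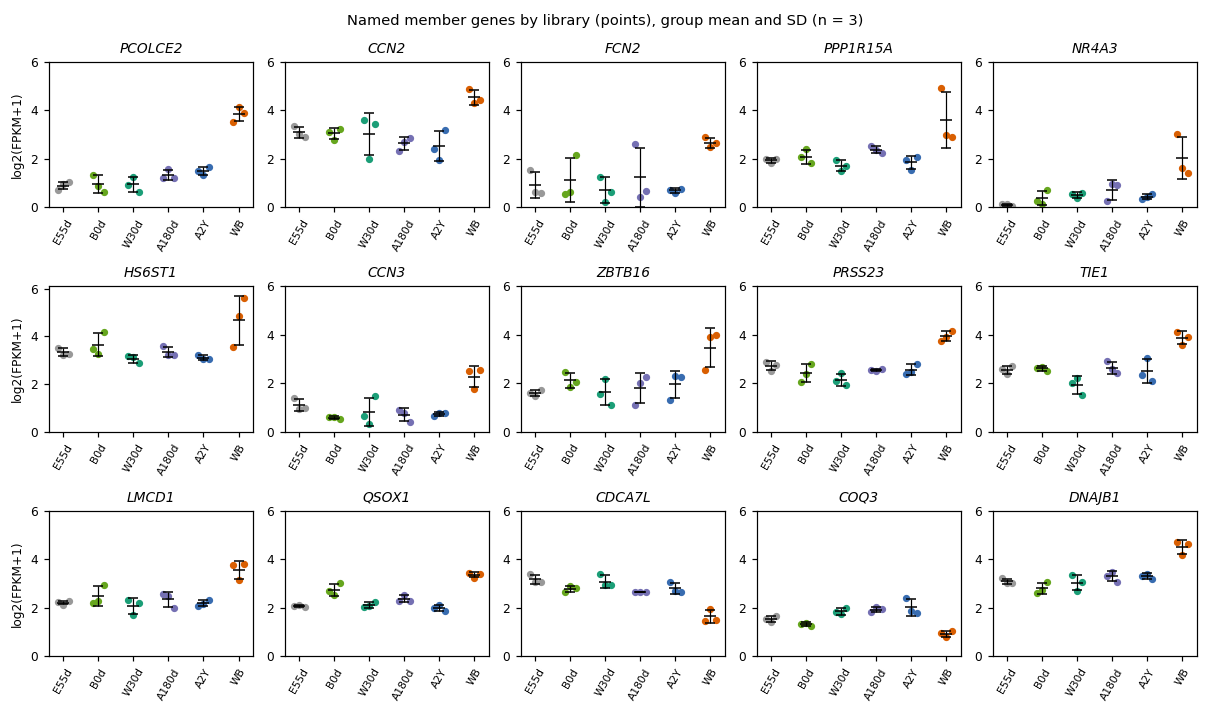
Points are the log2(FPKM+1) values of single libraries for 15 named members, with the group mean and SD (n = 3) as a bar. The 3 WB points (orange) lie below the A2Y points for CDCA7L and COQ3 and above them for the other genes, and for PPP1R15A and NR4A3 a single WB point lies far above the other two.

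Genes of the acute stress and early response made up 5 members (PPP1R15A, NR4A3, GEM, DNAJB1 and RCAN1), all higher in WB with a median difference of 1.27. In all 5 the highest boar was WB replicate 1. Without that library their differences lay between 0.72 and 1.10 (median 1.08). The direction could not change, since the rule allowed no overlap between A2Y and WB.

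PPP1R15A (ENSSSCG00000003155), a phosphatase subunit that restores protein synthesis after stress, had values of 1.94, 1.55 and 2.06 in A2Y and 4.92, 2.97 and 2.90 in WB. The difference was 1.75 and the FPKM 5.38-fold, and without WB replicate 1 the difference was 1.09 and the ratio 2.52. NR4A3 (ENSSSCG00000005385), an orphan nuclear receptor of the immediate early class, had values of 0.33, 0.42 and 0.56 in A2Y and 3.02, 1.63 and 1.41 in WB. Its difference of 1.58 corresponded to a 10.1-fold FPKM on a low base of 0.358 in A2Y, and without WB replicate 1 the ratio was 5.25. For both genes all 3 boars were nevertheless above the 15 domestic libraries, which spanned 1.498 to 2.55 and 0.06 to 0.95.

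DNAJB1 (ENSSSCG00000013784), a heat shock co-chaperone, was the most even of the group, with 3.32, 3.40 and 3.19 in A2Y and 4.72, 4.19 and 4.62 in WB (difference 1.21). RCAN1, an inhibitor of calcineurin that calcium signalling itself induces, had 1.82, 2.17 and 2.31 in A2Y and 3.80, 2.96 and 2.68 in WB (difference 1.05). GEM, a small inducible GTP-binding protein, had 1.15, 1.09 and 1.44 in A2Y and 3.002, 2.12 and 2.35 in WB (difference 1.26). Of the 5, only GEM overlapped the domestic libraries, whose highest value was 2.39.

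Some related genes that were not members showed the same inequality between the boars. FOS (7.09, 4.44 and 4.62 in WB), EGR1 and ATF3 were far higher in WB replicate 1. JUNB (6.15, 5.54 and 5.71) and HSPH1 (4.40, 3.93 and 4.23) were more even. On a list of immediate early and heat shock genes, 5 measured genes were not members, of which 2 were called higher in WB than in A2Y by limma with Benjamini-Hochberg adjustment over all 12913 genes at an adjusted p of 0.05, beside 20.4% of all genes called in either direction. FOS differed by 2.60 (adjusted p = 0.0025, limma) and JUNB by 1.20 (adjusted p = 0.0314, limma), and the other 3 did not pass. The summed FPKM of the whole list, with the member DNAJB1 included, was 50.1 to 59.5 in A2Y. In WB replicates 1, 2 and 3 it was 297, 107 and 124, while B0d replicate 3 reached 128. Without WB replicate 1 a single gene of the list was called, as was the case without A2Y replicate 2 or 3. The part of this response in the members' values was not tested.

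Proteins of the cell surface made up 6 members, all higher in WB with a median difference of 1.09. For 5 of them all boars lay outside the domestic libraries, beside 39 of the 59 members and 7.31% of all genes. TIE1 (ENSSSCG00000003950), a receptor tyrosine kinase of endothelium, had values of 2.35, 3.05 and 2.10 in A2Y and 4.13, 3.60 and 3.92 in WB (difference 1.38). CD151, a tetraspanin that binds integrins, had 4.78, 4.60 and 4.82 in A2Y and 5.94, 5.54 and 6.02 in WB, and was the most abundant of the group (FPKM 25.7 and 56.6). SLC3A2, the shared chain of several amino acid transporters, had 4.33, 4.48 and 4.06 in A2Y and 5.43, 5.14 and 5.43 in WB. In all 3 genes the boars formed a compact group above the domestic pigs.

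LRRC8A, a subunit of the volume-regulated anion channel, differed by 1.18, and IGF2R, which carries lysosomal enzymes and clears an insulin-like growth factor, by 1.03. UPK1B, a uroplakin of the tetraspanin family, was carried by a single animal, with 1.05, 0.57 and 1.09 in A2Y and 2.97, 1.47 and 1.54 in WB. Its difference of 1.09 became 0.60 without WB replicate 1, and 2 of its boars lay within the domestic span of 0.57 to 1.61.

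Enzymes of metabolism, mitochondria and redox balance made up 8 members, 7 higher and 1 lower. For 3 of them all boars lay outside the domestic libraries, beside 39 of the 59 members and 7.31% of all genes. The median difference of the 7 was 1.10. PSPH, the last enzyme of serine synthesis, had 1.32, 1.49 and 1.04 in A2Y and 2.997, 2.44 and 2.06 in WB, above the domestic span of 0.99 to 1.67. HK2, which phosphorylates glucose at the entry to glycolysis, had 1.15, 1.22 and 1.51 in A2Y and 2.63, 2.33 and 2.26 in WB, but B0d replicate 3 was also at 2.35. ENO1, a later glycolytic enzyme, had 5.79, 5.66 and 5.15 in A2Y and 6.22, 6.32 and 7.35 in WB, and WB replicate 3 alone stood above the domestic span of 5.15 to 6.55. For the glycolytic members the boars thus overlapped domestic pigs of other stages, in HK2 a newborn and in ENO1 pigs of B0d, W30d and A180d.

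COX4I1, a nuclear-encoded subunit of cytochrome c oxidase, had 5.72, 5.37 and 6.12 in A2Y and 6.30, 6.99 and 6.96 in WB (difference 1.01). On a fixed list of transcripts of the mitochondrial genome, 3 of 7 (ND2, COX2 and COX3) were called lower in WB than in A2Y by limma, beside 20.4% of all genes called in either direction. The list had a median difference of -0.68 and included CYTB with a difference of -0.01, and 1 of the 7 was called without A2Y replicate 3, WB replicate 1 or WB replicate 2. The remaining higher members of the group were MTX1, a protein of the outer mitochondrial membrane (difference 1.14), TXNRD1, which reduces thioredoxin (difference 1.05), and FOXRED2, a flavoprotein of the endoplasmic reticulum (difference 1.05). Each had at least 1 boar within the domestic span.

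Genes of membrane traffic and autophagy made up 6 members with a median difference of 1.07, all higher in WB. ULK2, a kinase that starts autophagy, had 2.52, 2.58 and 3.34 in A2Y and 3.75, 3.51 and 4.35 in WB. MAP1LC3A, a protein of the autophagosome membrane, had 2.67, 2.52 and 2.84 in A2Y and 3.86, 3.46 and 3.93 in WB. SNX9, which shapes membranes in endocytosis, had 3.31, 3.65 and 3.68 in A2Y and 4.25, 4.74 and 4.82 in WB. ULK2 and SNX9 were the members of this group whose boars cleared all domestic pigs. FHIP1B, part of a complex that links vesicles to motors, differed by 1.35, and SEC14L1, which has a lipid-binding domain, by 1.03. TAMALIN, a scaffold protein, differed by 1.09 with values of 3.60, 1.64 and 1.97 in WB, and by 0.49 without WB replicate 1.

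Nuclear and other proteins made up the last 6 members with a symbol, 5 of them higher. ZBTB16 (ENSSSCG00000030095), a zinc-finger repressor that guides innate-like lymphocytes, had values of 1.31, 2.31 and 2.24 in A2Y and 2.53, 3.89 and 3.97 in WB (difference 1.51). WB replicate 1 was the lowest boar and lay just above the domestic maximum of 2.47. LMCD1 (ENSSSCG00000011538), a LIM-domain co-regulator of transcription, had 2.06, 2.16 and 2.30 in A2Y and 3.75, 3.12 and 3.78 in WB (difference 1.38). TRIM47, a ubiquitin ligase, differed by 1.01, TBL2 by 1.20 and CFAP90, a protein of cilia and flagella, by 1.05 at a mean FPKM of 0.285 in A2Y. TBL2 alone of these 5 overlapped the domestic pigs, at B0d replicate 3 (3.74).

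The 3 members that were lower in WB were CDCA7L, COQ3 and a gene without a symbol. CDCA7L (ENSSSCG00000015380), a partner of the transcription factor MYC, had values of 3.04, 2.69 and 2.65 in A2Y and 1.44, 1.95 and 1.51 in WB, a 2.8-fold higher FPKM in A2Y. COQ3 (ENSSSCG00000004349), a methyltransferase of ubiquinone synthesis, had 2.41, 1.86 and 1.77 in A2Y and 0.94, 0.80 and 1.04 in WB, 3.45-fold higher in A2Y. In both genes every boar was below every domestic pig, where values spanned 2.65 to 3.38 and 1.23 to 2.41. The third, ENSSSCG00000029479, had 4.19, 3.77 and 3.56 in A2Y and 2.45, 2.84 and 3.12 in WB, and its boars overlapped the domestic span of 3.01 to 4.19.

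Of the 21 members without a symbol, 20 were higher in WB with a median difference of 1.13. For 15 of the 21 all boars lay outside the domestic libraries, beside 39 of the 59 members and 7.31% of all genes. ENSSSCG00000008001 had 0.94, 0.22 and 0.89 in A2Y and 4.06, 2.11 and 1.91 in WB, an 11.3-fold FPKM, with WB replicate 1 far above the others. Without that library its difference was 1.33 and its ratio 4.72. ENSSSCG00000024844 had 3.38, 3.61 and 3.48 in A2Y and 4.97, 5.18 and 5.68 in WB, with no such inequality. Over all 59 members, 7 had a difference that moved by more than 1.5 times without WB replicate 1, and none did so without any other WB or A2Y library.

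The members also lay apart from WB at the 4 younger stages, in a direction that the rule fixes through the small stage range. The median difference of the 56 higher members was 1.11 against A180d, 1.24 against W30d, 1.09 against B0d and 1.28 against E55d. The smallest differences were 0.36, 0.57, 0.33 and 0.52 in that order. Over all genes the median differences were 0.09, 0.09, 0.09 and 0.22. Limma called all 59 members against A2Y, where 20.4% of all genes were called and the rule had used the contrast. It called 48 against A180d (17.7% of all genes), 56 against W30d (39.1%), 48 against B0d (39.6%) and 56 against E55d (59.7%). Groups did not overlap for 49 members against A180d, beside 35.2% of all genes. These comparisons share the WB libraries and the rule bounds each of them, so the counts are a description.

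**Figure D4:**
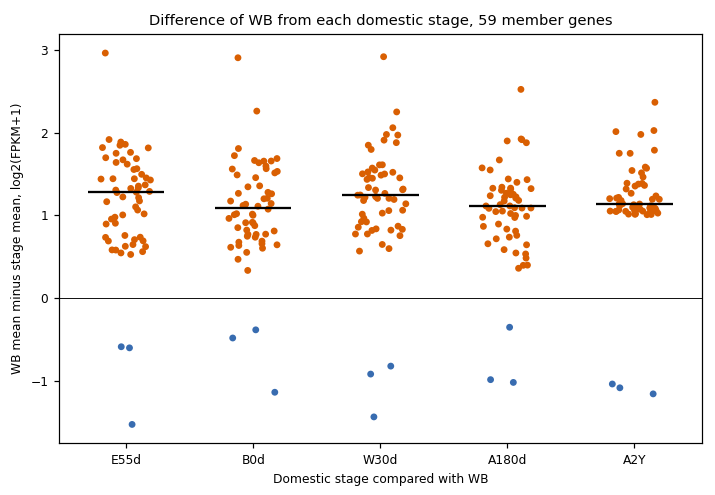
Each point is a member gene, and the vertical axis gives the WB mean minus the mean of the domestic stage on the horizontal axis, log2(FPKM+1). Orange points are the 56 genes higher and blue points the 3 genes lower in WB than in A2Y, and black lines are medians of the 56, between 1.09 and 1.28.

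Constancy over the stage means did not imply constancy between animals. For the 56 higher members the highest and lowest of the 15 domestic libraries lay a median of 1.10 apart (range 0.57 to 2.41), against 1.29 over all genes. B0d replicate 3 was the highest domestic library for 15 of the 56, whereas it was so for 12.2% of all genes. This newborn overlapped the boars in several members, among them HK2, HS6ST1, TBL2, ENO1, FHIP1B and SEC14L1. In HS6ST1 A180d replicate 1 (3.61) did so too. The highest stage mean was that of A180d for 19 members, B0d for 15, E55d for 9, A2Y for 8 and W30d for 5, so that no single stage lay closest to WB for most of them.

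Marker lists of the cell types of the spleen differed between A2Y and WB beside the members. No gene on the lists except DNAJB1 was a member, and counts are of genes called by limma among the measured genes that were not members, beside 20.4% over all genes. Markers of stroma and smooth muscle were called higher for 3 of 6 genes, with a median difference of 1.02. DES, the muscle intermediate filament, differed by 1.86, TAGLN, of smooth muscle, by 1.43 and DCN, a matrix proteoglycan, by 1.79, while COL3A1 (0.49), ACTA2 (0.61) and MYH11 (0.13) did not pass. The summed FPKM of the list was 676 to 991 in A2Y, 473 to 991 over all domestic libraries and 2073, 1347 and 1808 in WB, without overlap. The 7 secreted and matrix members were also higher in WB, and the part of stromal RNA in their values was not tested.

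Other lists with calls were those of macrophages, endothelium and lymphocytes. Red pulp macrophage and monocyte markers were called higher for 2 of 5 genes, C1QA (1.23) and VCAM1 (0.83), and for 1 without A2Y replicate 2. SPIC (0.14), CD14 (0.67) and CSF1R (-0.86) did not pass, and CSF1R was at 4.41, 1.54 and 1.62 in WB against 3.30, 3.68 and 3.17 in A2Y. Without WB replicate 1, 3 genes of the list were called higher and 1 was called lower. The summed FPKM, 1914 to 2259 in A2Y and 3728 to 4782 in WB, is mostly that of the abundant C1QA and VCAM1. PECAM1 was the only gene of the endothelium list found by its symbol. It was higher by 0.69 ± 0.20 (SE, adjusted p = 0.0232, limma), and was not called without A2Y replicate 1 or 2 or WB replicate 2 or 3. B cell markers were called lower for 4 of 4 genes, among them MS4A1 (-1.96) and CD79B (-1.36), with summed FPKM of 116 to 170 in A2Y and 39.1 to 43.6 in WB. T cell markers were called lower for 1 of 4 genes, CD3D (-1.10), which was not called without A2Y replicate 1 or 3 or WB replicate 3. Of the lists with more than 1 measured gene, that of B cells alone had every gene called. Without A2Y replicate 1 or any single WB library, 3 of its 4 genes were called. The part of these lists in the members' values was not tested.

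Few further calls were made on the remaining lists. Interferon response genes were called higher for 1 of 5, a call that was lost without A2Y replicate 1 or 2 or WB replicate 2 or 3. The list had a median difference of 0.18. IFIT1 (-0.72) and RSAD2 (-0.64) were lower in WB without being called, and the other genes of the list were higher. No pancreas marker was found by its symbol. Limma called no gene in either direction for neutrophils (3 genes, median difference 1.84), erythroid cells (4 genes, 1.27), NK and cytotoxic cells (3 genes, -0.14), plasma cells (2 genes, -0.18), MHC (2 genes, -0.07) and megakaryocytes and platelets (1 gene, -0.30). At an unadjusted p under 0.05, 2 of these 15 genes passed, both neutrophil markers. Without WB replicate 1, 2 of the 3 neutrophil genes were called higher. The erythroid list varied widely between animals, with a summed FPKM of 169 to 2742 in A2Y and 871, 6258 and 6709 in WB. In these groups the sum is mostly that of HBB, which was listed at 0 in some libraries of E55d and W30d.

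**Figure D5:**
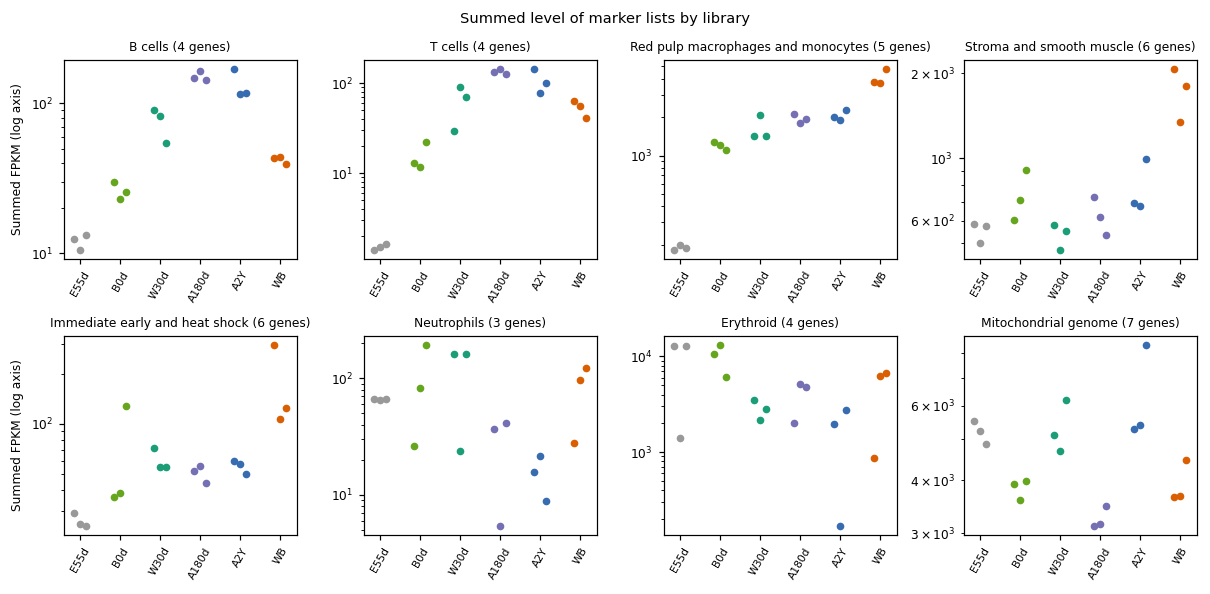
Points give the summed FPKM of the measured genes of 8 marker lists in each library, on a log axis, by group. The WB points (orange) lie above all domestic points for stroma and smooth muscle and for macrophages, below the A2Y points for B and T cells, and WB replicate 1 stands highest for immediate early and heat shock genes.

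When the rule was applied without a library, the position of the left-out animal was recorded for the genes found. The genes were still chosen on the values of the other group, which favours separation, so these counts are a description. Without WB replicate 1 the rule found 79 genes, and in 73 of them (92.4%) the left-out boar lay beyond all 3 A2Y values on the side of the other boars. For WB replicate 2 this was so for 73 of 87 genes (83.9%), and for WB replicate 3 for 52 of 57 (91.2%). Over all genes, chosen on no values, the shares were 57.1, 57.7 and 56.8%. The left-out boar differed from the A2Y mean by at least 1 in 26, 28 and 25 of these genes. A left-out A2Y library lay on the A2Y side of all boars for 52 of 54, 54 of 56 and 67 of 77 genes, beside 57.0, 52.8 and 56.3% of all genes. Of the 59 members, 49, 54 and 36 were found again without WB replicates 1, 2 and 3.

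The same rule applied to lncRNAs, which it had not been made for, selected 16 of 15040 (0.106%), 9 higher and 7 lower in WB. Of the 341 lncRNAs that separated WB from A2Y by both limits, 50 (14.7%) were higher in WB, against 415 of 673 protein-coding genes (61.7%). A lncRNA that was not detected was read as FPKM 0, and the WB libraries had fewer detected lncRNAs than A2Y. Among lncRNAs with a value in all 18 libraries, 10 met the rule (3 higher and 7 lower).

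The members that could be placed in a gene order were not near neighbours. The others, among them the 21 without a symbol, were not placed. Of the 38 with a symbol, 32 were found in the RefSeq gene table of another pig assembly (Sscrofa11.1), on 11 chromosomes with at most 6 on any of them, and 0 pairs lay within 10 genes of each other. No background was computed for other sets of this size, so nothing is read from this count.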

How the data were processed

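Spleen RNA was sequenced from 3 animals in each of 6 groups with strand-specific libraries. The authors mapped the reads with TopHat to a pig genome with replaced sex chromosomes (Sscrofa10.2 in the submitters' processing notes), quantified genes with StringTie 1.3.3 and deposited log2(FPKM+1) values, 1 column per library. Whether libraries were scaled further is not stated. The authors compared groups with DESeq2 on read counts, which were not used here.

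The tests had been planned for FPKM, and the deposited log2 values were used as they are. A single limma model (version 3.58.1, R 4.3.3) held all 18 libraries in 6 groups, with a mean-variance trend and Benjamini-Hochberg adjustment over 12913 genes (adjusted p of at most 0.05). The filter of FPKM above 0.1 in 3 libraries removed no gene. Tests were tried on simulated data. An undetected lncRNA was read as FPKM 0. The 3 E55d columns carry numbers that do not match the labels and were used without a replicate number. Replicates are separate animals.

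Members and marker lists were chosen with earlier results of these data known. The names of 8215 identifiers came from a reference table, and a list gene that it did not pair with an identifier could not be found. Genes named with all values were the 12 with a symbol and the widest difference upward, the lower members with a symbol, and any member on a marker list. The other members were named by role after their values were seen. The lists covered B, T, NK and plasma cells, macrophages, neutrophils, erythroid cells, megakaryocytes, stroma, endothelium, pancreas, interferon, immediate early genes, MHC and the mitochondrial genome, and the values of 1 marker are not reported here. Other settings were other limits, a pseudocount of 0.1, a stricter filter, median-ratio scaling, other models, the replicate number as a block and each library left out. Leaving out libraries and scaling were applied to the marker lists after their results were seen. Python 3.11.15 with numpy 2.4.6, pandas 2.3.3 and matplotlib 3.10.9 was used.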

Additional observations from a re-analysis of the deposited data

How the results depend on the processing

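The number of members followed the limits. A domestic range below 0.5 left 15 genes, all higher in WB, and one below 1 gave 134 (107 higher and 27 lower). A difference of at least 1.5 left 11, all higher, and boars outside all 15 domestic libraries left 39. A pseudocount of 0.1 gave 58 genes with 47 higher and 11 lower, of which 30 were among the 59. Leaving out single libraries gave 50 to 87 genes. Scaling kept the sign of all 59 members, with 55 still differing by at least 1 and 48 stable over the stages. Over the whole table limma called 2631 genes between A2Y and WB, 1401 with only these groups in the model and from 1512 (without A2Y replicate 1) to 2268 without single libraries. For lncRNAs, 10 met the rule among those with a value in every library and 77 (19 higher and 58 lower) with a pseudocount of 0.1. The differences of the 15 named genes kept their direction under all 120 alternatives. Leaving out a library or changing the pseudocount could not reverse it, since the rule allowed no overlap between A2Y and WB. All became wider with a pseudocount of 0.1, 7 of them by more than the spread between replicates. The replicate numbers are animals with no stated link, and same-numbered libraries did not deviate together (mean correlation -0.011 over 30 pairs, against 0.006 over 60 pairs with other numbers). With the replicate number as a block, without E55d, 1774 genes and 56 members were called against A2Y, and 46, 52 and 46 members against A180d, W30d and B0d. No paired analysis was possible for E55d because its columns carry no usable number. Depth behind a value is unknown, which limits the 10 members with a mean FPKM below 1 in A2Y most.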
